A study of Homo sapiens with 12 samples.

Results

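The STEAP metalloreductase genes STEAP1, STEAP1B, STEAP2, STEAP3 and STEAP4 were followed in C4-2 cells, a prostate cancer line that descends from LNCaP and grows without androgen. They are the 5 rows with these symbols among 56269 gene symbols in a table of RNA sequencing counts. The 4 groups, with 3 libraries each and 12 in all, were paxillin siRNA with the androgen dihydrotestosterone (DHT), nonspecific siRNA with DHT, paxillin siRNA with ethanol vehicle, and nonspecific siRNA with ethanol vehicle. Every group was transfected with its siRNA for 48 h, serum-starved for 12 h, and then given 2.5 nM DHT or vehicle for 24 h. Paxillin, encoded by PXN, is an adaptor protein of focal adhesions, and DHT is the most potent natural ligand of the androgen receptor. All groups come from 1 cell line, and the labels do not say whether the libraries of a group were separate cultures, and the spread that the p-values are set against may thus be technical.

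STEAP proteins are haem-containing membrane proteins, named for an antigen of the prostate epithelium. STEAP2, STEAP3 and STEAP4 carry a domain that binds NADPH and pass its electrons across the membrane, which reduces ferric iron and cupric copper so that transporters can carry the metals. STEAP1 lacks that domain and is a target of antibody therapies in prostate cancer. STEAP3 is known in mice as the ferrireductase of the endosomes that take up transferrin iron in red cell precursors, and STEAP4 is also known by a name given to it as an androgen-responsive gene of LNCaP cells (STAMP2).

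STEAP1 lies on chromosome 7 at 90154375 to 90164829 on the plus strand, and STEAP2 follows it on the same strand at 90167590 to 90238137, 2.761 kb further on (GRCh38, GENCODE 29). STEAP4 lies on the minus strand of chromosome 7 at 88270892 to 88306891. STEAP1B is also on the minus strand of chromosome 7, at 22419444 to 22727613, and STEAP3 is on the plus strand of chromosome 2, at 119223831 to 119265652. All 5 genes are annotated as protein coding.

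STEAP1 and STEAP1B are near-copies at their starts, and a stretch of each start region is shown to let that likeness be seen. The 300 bases around their RefSeq starts (250 before, 50 after; GRCh38.p14) differ at 10 positions without gaps, so that 96.7% are identical. The first pair of differences is G67A and T69G, counted from 1 at the 5′ end of the STEAP1 window, with the STEAP1 base first. Capitals mark these bases in the stretches at chr7:90154273-90154302 (plus strand) for STEAP1 and chr7:22500355-22500384 (minus strand) for STEAP1B. The STEAP1 stretch lies before the annotated exons of STEAP1, with 0 of its bases in them, and all 30 bases of the STEAP1B stretch lie in exons of STEAP1B.
STEAP1: aaacggacctcaGgTgcagggcagacggca
STEAP1B: aaacggacctcaAgGgcagggcagacggca
The start windows of the other pairs of members shared between 50.9% and 52.8% of aligned positions, with gaps allowed. STEAP2 has a pair of RefSeq starts, and only the window listed first was aligned. In the annotated transcripts, 220 of the 1622 runs of 75 bases in STEAP1 (13.6%) also occur in STEAP1B, where they are 3.26% of its 6754 runs, and no other pair of members shared such a run. Reads from the shared runs could have been split, assigned to 1 of the genes or dropped, and how the authors treated them is not given in the sources used here, so the STEAP1B values are uncertain.

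The 250 bases upstream of the RefSeq start of STEAP4, the member that changed most with DHT, are at chr7:88306895-88307144 and are shown on the minus strand, the strand of the gene.
STEAP4 upstream: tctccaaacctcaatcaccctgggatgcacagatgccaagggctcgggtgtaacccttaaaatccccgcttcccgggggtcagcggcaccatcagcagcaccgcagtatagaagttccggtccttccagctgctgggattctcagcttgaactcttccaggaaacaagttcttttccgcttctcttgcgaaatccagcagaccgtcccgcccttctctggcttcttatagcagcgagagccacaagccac
The androgen response element was searched on both strands as its single arm AGAACA and as its full palindrome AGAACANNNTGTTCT, which contains the arm. Neither occurred in the start window of any STEAP gene, and so no base is in capitals. Only exact matches to these letters were sought, and sites that differ from them or lie outside the windows were not searched. Of 35116 RefSeq start windows, 14.8% held the single arm and 1 window held the full palindrome. The lack of a match thus does not show that a STEAP gene has no androgen response element. The GC content of the STEAP4 window was 58.7%, equal to the median of all windows, whereas the STEAP1 window had 66.7%, the STEAP1B window 66.0% and the STEAP3 window 78.7%. STEAP2 has a pair of RefSeq starts, whose windows had 70.3% and 33.7%. They are at 90211740 and 90213820, well inside the GENCODE gene, which begins at 90167590.

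Libraries held 26251814 to 32040465 counts with paxillin siRNA and DHT, 24207745 to 28298195 with nonspecific siRNA and DHT, 25701219 to 29037657 with paxillin siRNA and vehicle, and 11944906 to 25303242 with nonspecific siRNA and vehicle. Levels are CPM, counts scaled to a fixed library total after TMM scaling (the trimmed mean of M-values), and 1 count was worth 0.0328 to 0.0815 CPM. PXN was at 9.36 to 14.2 CPM with paxillin siRNA and DHT, against 121 to 136 CPM with nonspecific siRNA and DHT, and at 12.3 to 16.7 CPM with paxillin siRNA and vehicle, against 139 to 151 CPM with nonspecific siRNA and vehicle. FKBP5, a well-known androgen receptor target, was 25.8-fold higher with DHT under nonspecific siRNA (log2 fold change 4.69 ± 0.11 SE). The other genes chosen as a check of DHT rose less there, KLK3 by 2.07-fold and TMPRSS2 by 5.09-fold. Under paxillin siRNA the DHT folds were 21.4 for FKBP5, 2.31 for KLK3 and 5.29 for TMPRSS2. All 8 luminal prostate markers were expressed, while the 3 basal and 3 immune markers stayed under 1 CPM in every library. Of the stromal and endothelial markers, COL1A1 reached 24.8 to 47.6 CPM, ACTA2 1.39 to 3.26 CPM and VWF 8.30 to 14.95 CPM, and COL1A2, DES and PECAM1 stayed under 1 CPM. With DHT, the 4 stromal markers summed to 26.5 to 28.8 CPM under paxillin siRNA and 35.2 to 39.4 CPM under nonspecific siRNA. With vehicle they summed to 35.6 to 38.3 CPM under paxillin siRNA and 39.3 to 49.2 CPM under nonspecific siRNA. The sum, mostly COL1A1, was thus lower with paxillin siRNA in both treatments, and lower with DHT under paxillin siRNA. Under nonspecific siRNA the ranges with DHT and vehicle overlapped. Its part in the results was not tested. In cultured cells measured in bulk, fewer cells making an RNA and less RNA per cell cannot be told apart.

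Genes were tested with edgeR's quasi-likelihood test on the counts of 16115 genes that passed a filter on low counts, with p-values adjusted over all of them by the Benjamini-Hochberg method and a call made under 0.05. Groups are also described as overlapping, or as lying above or below each other. For 3 against 3 libraries the smallest exact p is 0.1, so such an order alone is no call. The share of all genes with such an order is not given here. STEAP1, STEAP2, STEAP3 and STEAP4 passed the filter, and STEAP1B, with 0 to 10 counts a library, did not. STEAP4, with 1 to 12 counts a vehicle library, passed through its DHT libraries. Under paxillin siRNA, DHT gave higher STEAP4 and lower STEAP3, where 38% of all tested genes were called (20.1% higher and 17.9% lower). Under nonspecific siRNA, STEAP4 was the only member called with DHT, and it was higher, where 40.5% of genes were called (21.6% higher and 18.9% lower). In DHT, paxillin siRNA gave higher STEAP4, where 13.3% were called (6.34% higher and 7% lower). In vehicle, it gave lower STEAP2 and higher STEAP3, where 20.5% were called (10.7% higher and 9.78% lower). These calls are from a fit of group means that leaves out the replicate number, although the numbers pair the libraries. A fit with the number as a term, the replicate block, also called STEAP2 lower with DHT under nonspecific siRNA (-0.19, edgeR adjusted p 0.0204). It also called STEAP3 higher with paxillin siRNA in DHT (0.22, edgeR adjusted p 0.0437). Over all genes the block called 3967 higher and 3470 lower in the former, and 1681 and 1805 in the latter. The interaction, the DHT response with paxillin siRNA minus that with nonspecific siRNA, called no member and 0.0496% of genes (0.0372% higher and 0.0124% lower), 8 in all. No member had an unadjusted p under 0.05 in it. None was called by DESeq2 or limma-voom, which called 27 genes higher and 27 lower, and 0 and 0, over all genes. The split of all genes by direction depended on scaling for DHT. With upper-quartile scaling 2262 genes were higher and 3935 lower under paxillin siRNA, where TMM gave 3234 and 2886, and 2707 were higher and 3896 lower under nonspecific siRNA, where TMM gave 3481 and 3053.

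STEAP4 was close to undetected without hormone and clearly expressed with it. Counts with DHT were 1141, 1004 and 1068 under paxillin siRNA, which are 37.4, 39.5 and 41.5 CPM, and 529, 393 and 538 under nonspecific siRNA, which are 22.7, 17.1 and 20.2 CPM. Counts with vehicle were 4, 10 and 12 under paxillin siRNA, or 0.132, 0.365 and 0.435 CPM. Under nonspecific siRNA with vehicle they were 1, 4 and 2, or 0.0815, 0.155 and 0.0752 CPM. Every DHT library lay above every vehicle library, and the 3 libraries with paxillin siRNA and DHT lay above the 3 with nonspecific siRNA and DHT.

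Under paxillin siRNA, STEAP4 averaged 39.5 ± 2.04 CPM with DHT and 0.310 ± 0.159 CPM with vehicle (SD, n = 3 each). The log2 fold change was 6.99 ± 0.19 (SE; 95% interval 6.59 to 7.40), a 127-fold difference, with an edgeR adjusted p of 1.2e-14. Under nonspecific siRNA it averaged 19.99 ± 2.77 CPM with DHT and 0.104 ± 0.0444 CPM with vehicle. The log2 fold change there was 7.47 ± 0.26 (95% interval 6.92 to 8.01), a 177-fold difference (edgeR adjusted p 1.9e-13). In the order of log2 fold changes over the 16115 tested genes, STEAP4 stood at place 14 from the top under paxillin siRNA and at place 11 under nonspecific siRNA. Both folds rest on few vehicle counts, 26 in all with paxillin siRNA and 7 in all with nonspecific siRNA. The ratios of the summed counts, scaled for depth, had 95% intervals of 88.1 to 198 under paxillin siRNA and of 89.5 to 461 under nonspecific siRNA, which cover counting error only.

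**Figure D1:**
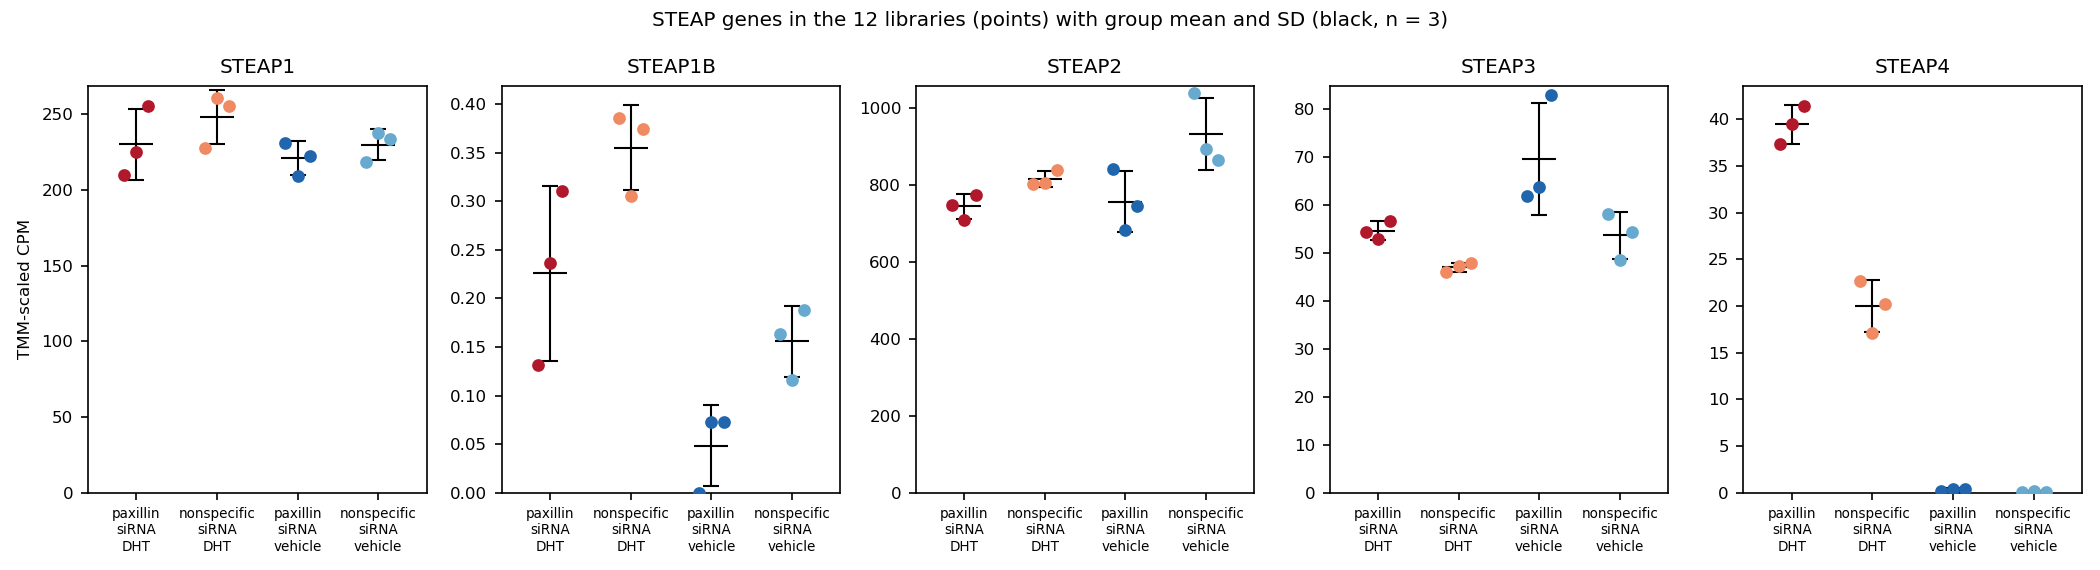
TMM-scaled CPM (y axis, separate scale in each panel) of the 5 STEAP genes in the 12 libraries; points are libraries, black lines the group mean and SD (n = 3). The vehicle libraries of STEAP4 lie at 0.0752 to 0.435 CPM, against 17.1 to 41.5 CPM in the DHT libraries, whereas the groups of STEAP1 overlap throughout.

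With DHT present, STEAP4 was also higher with paxillin siRNA than with nonspecific siRNA. The means were 39.5 ± 2.04 CPM with paxillin siRNA and 19.99 ± 2.77 CPM with nonspecific siRNA, and the log2 fold change was 0.98 ± 0.11 (95% interval 0.74 to 1.22), a 1.97-fold difference (edgeR adjusted p 4.5e-05, higher in 3 of 3 libraries). It stayed between 0.88 and 1.08 and was called in all 20 alternatives run for it. In vehicle the same comparison had 26 counts in all with paxillin siRNA and 7 with nonspecific siRNA, a depth-scaled ratio of 2.81 (95% interval 1.19 to 7.67, counting error only), and the groups overlapped at 4 counts a library. Its log2 fold change of 1.45 ± 0.57 was not called (edgeR adjusted p 0.0796), and it was called only without paxillin vehicle replicate 1, at 1.84 (adjusted p 0.0172). The difference between the DHT responses, paxillin minus nonspecific siRNA, was -0.47 ± 0.57 on the log2 scale (95% interval -1.68 to 0.74; edgeR adjusted p 0.852), which as a ratio of the folds is an interval of 0.312 to 1.67.

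STEAP3, with its NADPH-binding domain, was expressed in every group and differed by 1.30-fold or less between the groups compared. It had 54.2, 52.8 and 56.7 CPM with paxillin siRNA and DHT, against 45.9, 47.2 and 47.8 CPM with nonspecific siRNA and DHT. With vehicle it had 61.8, 63.7 and 82.9 CPM under paxillin siRNA, against 58.0, 48.4 and 54.3 CPM under nonspecific siRNA. The paxillin siRNA libraries were above the nonspecific ones within each treatment, the DHT libraries were below the vehicle ones within each siRNA, and paxillin vehicle replicate 3 stood highest.

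Under paxillin siRNA, STEAP3 averaged 54.6 ± 1.97 CPM with DHT and 69.5 ± 11.7 CPM with vehicle (SD, n = 3 each). This is a log2 fold change of -0.35 ± 0.092, or 21.4% lower (edgeR adjusted p 0.00586), and the call held in all 20 alternatives run for it, at -0.21 and an adjusted p of 0.0371 without paxillin vehicle replicate 3. Under nonspecific siRNA it averaged 47.0 ± 0.973 CPM with DHT and 53.6 ± 4.84 CPM with vehicle, and the log2 fold change of -0.18 ± 0.095 was not called (edgeR adjusted p 0.132). There it was called only with upper-quartile scaling, with the compared groups alone, and without paxillin vehicle replicate 3 (log2 fold changes of -0.26, -0.20 and -0.18; adjusted p 0.0346, 0.0400 and 0.0417). The test of the difference between the responses under the siRNAs did not call it (-0.16 ± 0.13, 95% interval -0.44 to 0.11, edgeR adjusted p 0.750).

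In vehicle, STEAP3 was 1.30-fold higher with paxillin siRNA, with a log2 fold change of 0.38 ± 0.093 (edgeR adjusted p 0.00792, higher in 3 of 3 libraries). Without nonspecific vehicle replicate 2 the log2 fold change was 0.32 with an adjusted p of 0.0539. Without paxillin vehicle replicate 3, the highest library, it was 0.24 and remained called. In DHT the log2 fold change was 0.22 ± 0.093 (95% interval 0.02 to 0.41) and was not called (edgeR adjusted p 0.138), although the fit that pairs libraries by replicate number, the replicate block, gave 0.22 with an adjusted p of 0.0437. It was also called without the filter on low counts (0.23, adjusted p 0.0479), with the compared groups alone (0.21, 0.0319) and without paxillin vehicle replicate 3 (0.21, 0.0441). The antisense gene STEAP3-AS1 shares 500 of the 4562 exon bases of STEAP3 and had 0 to 4 counts a library.

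STEAP2 had the highest CPM of the family and was lower with paxillin siRNA in vehicle. Its levels were 748, 709 and 774 CPM with paxillin siRNA and DHT, and 802, 803 and 838 CPM with nonspecific siRNA and DHT. With vehicle they were 841, 681 and 746 CPM under paxillin siRNA, and 1038, 891 and 863 CPM under nonspecific siRNA. The nonspecific vehicle libraries stood above all others, and the first of them, the shallowest library of the study, stood highest.

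In vehicle, STEAP2 averaged 756 ± 80.2 CPM with paxillin siRNA and 931 ± 94.0 CPM with nonspecific siRNA (SD, n = 3 each). This was a log2 fold change of -0.30 ± 0.083, or 18.7% lower (edgeR adjusted p 0.0160, lower in 3 of 3 libraries). The call was lost without nonspecific vehicle replicate 1 (-0.21, adjusted p 0.0812), without paxillin vehicle replicate 2 (-0.22, 0.107) and without paxillin vehicle replicate 3 (-0.28, 0.0608). In DHT the log2 fold change was -0.13 ± 0.083 (95% interval -0.30 to 0.04; edgeR adjusted p 0.327). It was not called.

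Under paxillin siRNA the DHT log2 fold change of STEAP2 was -0.02 ± 0.083 (95% interval -0.20 to 0.15; edgeR adjusted p 0.851). Under nonspecific siRNA it was -0.19 ± 0.083, and this was not called (edgeR adjusted p 0.0729). It was called with the replicate block (-0.19, adjusted p 0.0204), with upper-quartile scaling (-0.26, 0.0154), with DESeq2 (-0.20, 0.0483), with the compared groups alone (-0.21, 0.0471) and without nonspecific vehicle replicate 3 (-0.24, 0.0475). The difference between these responses was 0.17 ± 0.12 and was not called (edgeR adjusted p 0.701). STEAP2-AS1, antisense to STEAP2, had 2 to 15 counts a library, shares no annotated exon base with it, and was called in none of the 5 comparisons, with edgeR adjusted p values of 0.319 to 0.985.

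STEAP1, which lacks the NADPH-binding domain, had a high level in every group. It was at 210, 225 and 256 CPM with paxillin siRNA and DHT, and 228, 261 and 256 CPM with nonspecific siRNA and DHT. With vehicle it had 231, 209 and 222 CPM under paxillin siRNA, and 218, 238 and 234 CPM under nonspecific siRNA. The groups overlapped in every comparison, and no comparison called it, here or in any alternative run for it.

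The DHT log2 fold change of STEAP1 was 0.06 (95% interval -0.10 to 0.22; edgeR adjusted p 0.574) under paxillin siRNA and 0.11 (-0.05 to 0.27; 0.268) under nonspecific siRNA. Paxillin siRNA gave -0.11 (-0.27 to 0.05; 0.382) in DHT and -0.06 (-0.22 to 0.10; 0.641) in vehicle. The fold changes in these intervals run from 0.831 to 1.205, so smaller changes in either direction cannot be told from none. STEAP2, whose GENCODE gene begins 2.761 kb after that of STEAP1 ends, thus had a call in vehicle where STEAP1 had none. The difference between the genes was not tested.

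STEAP1B had 4, 6 and 8 counts with paxillin siRNA and DHT, and 9, 7 and 10 counts with nonspecific siRNA and DHT. With vehicle it had 0, 2 and 2 counts under paxillin siRNA, and 2, 3 and 5 counts under nonspecific siRNA. DHT libraries were above the vehicle ones within each siRNA. The depth-scaled ratio of DHT to vehicle was 4.71 (18 against 4 counts, 95% interval 1.55 to 19.1) under paxillin siRNA and 2.30 (26 against 10 counts, 1.08 to 5.35) under nonspecific siRNA, with intervals that cover counting error only. In an edgeR fit without the filter on low counts, these gave adjusted p values of 0.0653 and 0.314 and were not called.

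For paxillin against nonspecific siRNA, STEAP1B had a ratio of 0.619 (18 against 26 counts, 0.319 to 1.17) in DHT and of 0.303 (4 against 10 counts, 0.0693 to 1.05) in vehicle, with unfiltered edgeR adjusted p values of 0.648 and 0.368. Over all libraries, 58 of the counts of both near-copies fell on STEAP1B and 70780 on STEAP1. This is a STEAP1B share of 0.0819% (Clopper-Pearson 95% interval 0.0622 to 0.106%, counting error only), with 0 to 0.169% in single libraries. The share differed between groups, which the interval does not cover. Under paxillin siRNA it was 0.0624 to 0.121% with DHT and 0 to 0.0349% with vehicle. Under nonspecific siRNA it was 0.117 to 0.169% with DHT and 0.0489 to 0.0803% with vehicle. Whether STEAP1 reads were counted as STEAP1B was not tested.

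**Figure D2:**
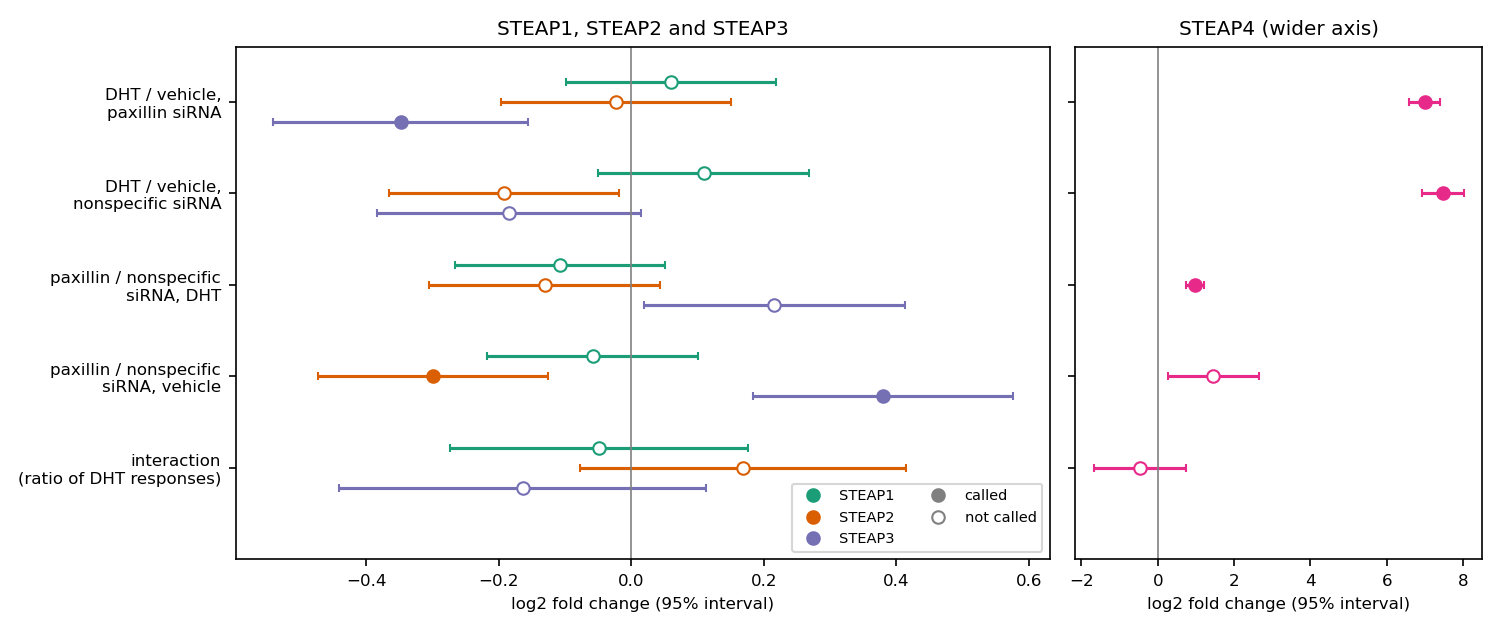
Log2 fold changes (x axis) with 95% intervals from the edgeR fit for STEAP1, STEAP2 and STEAP3 (left) and STEAP4 (right, wider axis) in the 5 comparisons; filled points were called at an adjusted p under 0.05. The DHT intervals of STEAP4 lie between 6.59 and 8.01, while every estimate of STEAP1, STEAP2 and STEAP3 lies between -0.35 and 0.38.

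To compare the members with each other, CPM were divided by the merged exon length of each gene in kb. On this scale STEAP1 had 142 with paxillin siRNA and DHT, 153 with nonspecific siRNA and DHT, 136 with paxillin siRNA and vehicle, and 141 with nonspecific siRNA and vehicle. STEAP2 followed with 85.3, 93.4, 86.7 and 107 CPM per kb in the same order of groups. STEAP3 came after them with 12.0, 10.3, 15.2 and 11.7 CPM per kb. The ranges of the libraries of these 3 genes did not overlap within any group. Divided by coding length instead, STEAP2 came before STEAP1 in every group (506 against 226 CPM per kb with paxillin siRNA and DHT), so the order of STEAP1 and STEAP2 depends on the length used.

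STEAP4 came next with DHT, at 3.51 CPM per kb under paxillin siRNA and 1.78 under nonspecific siRNA. Divided by coding length it lay closer to STEAP3, at 28.7 CPM per kb against 36.5 for STEAP3 under paxillin siRNA, and at 14.5 against 31.4 under nonspecific siRNA. On merged exon length, with vehicle it was at 0.0276 CPM per kb under paxillin siRNA, next to STEAP1B at 0.00748, and at 0.00924 under nonspecific siRNA, where STEAP1B was at 0.0240. Among 13947 tested genes with an annotated length, STEAP4 stood at percentile 45.2 with paxillin siRNA and DHT and 33.0 with nonspecific siRNA and DHT. With vehicle it stood at percentile 0.724 under paxillin siRNA and 0.251 under nonspecific siRNA. Genes low in every group were filtered out of this ranking, whereas STEAP4 passed through its DHT libraries. Its low place in vehicle thus follows partly from the filter. STEAP1 stayed at percentile 98.3 to 98.5 in all groups and STEAP2 at 96.6 to 97.9.

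**Figure D3:**
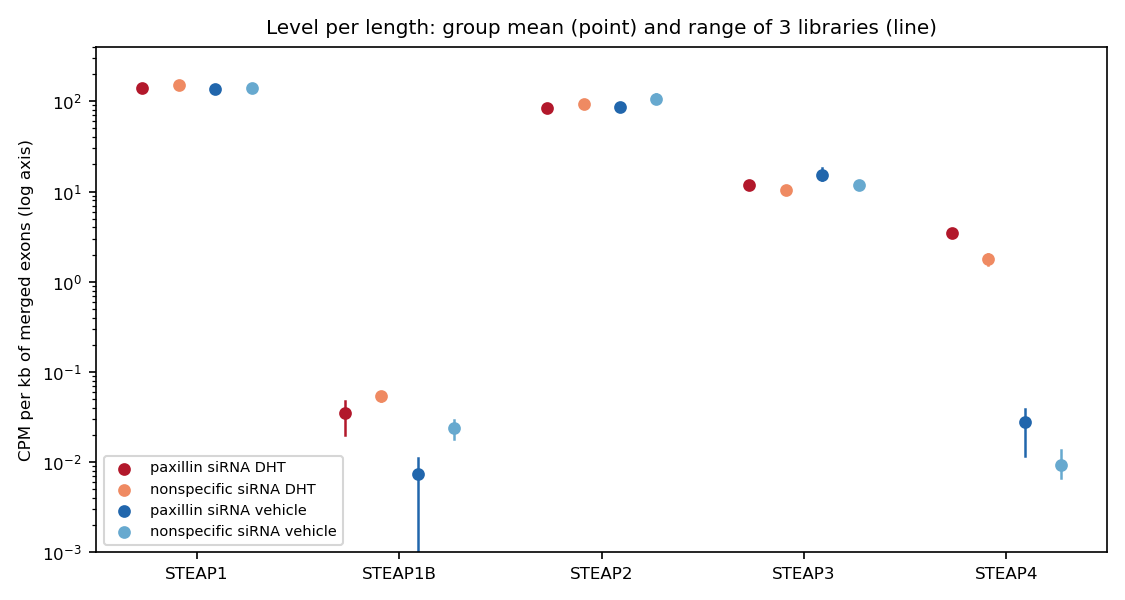
Level per kb of merged exon length (CPM per kb, log y axis) of each STEAP gene in the 4 groups; points are group means and lines the range of 3 libraries, cut at the lower edge of the axis for STEAP1B with paxillin siRNA and vehicle, where 1 library had 0 counts. STEAP1 and STEAP2 lie at 85.3 to 153 CPM per kb in every group, and STEAP4 lies at 1.78 to 3.51 with DHT and 0.00924 to 0.0276 with vehicle.

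Genes with a profile most like each member were sought among 10670 genes, by the root-mean-square difference of log2 CPM over the 12 libraries after centring. For STEAP4 they were CCDC141 (0.420), CHRNA2 (0.564), SLC26A3 (0.593) and SGK1 (0.654), set beside the SD of 3.44 of STEAP4 itself. All 4 are split by DHT, with 0 to 2 counts a vehicle library for CCDC141, 5 to 31 for CHRNA2, 0 for SLC26A3 and 8 to 42 for SGK1. This split follows from choosing genes by likeness to STEAP4 and is no separate result. The log2 fold change of paxillin siRNA in DHT, 0.98 for STEAP4, was 0.82 for CCDC141 and 1.103 for CHRNA2, but 0.07 for SLC26A3 and -0.01 for SGK1. SGK1 encodes a kinase induced by steroid hormones, and SLC26A3 a chloride and bicarbonate exchanger. For STEAP3 the nearest were TMEM184B (0.0698), FHOD1 (0.0787), ESYT3 (0.0790) and SLC46A1 (0.0828), a proton-coupled folate transporter. For STEAP2 they were ADCY6 (0.0438), an adenylate cyclase, USP30 (0.0543), SPTLC1 (0.0560) and CEPT1 (0.0561). For STEAP1 they were VEZT (0.0512), GTF2H1 (0.0548), ATP6V1H (0.0595) and ATP1B3 (0.0616), against an SD of STEAP1 of 0.103. The libraries in these profiles share depth and replicate number, and no test was made of them.

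**Figure D4:**
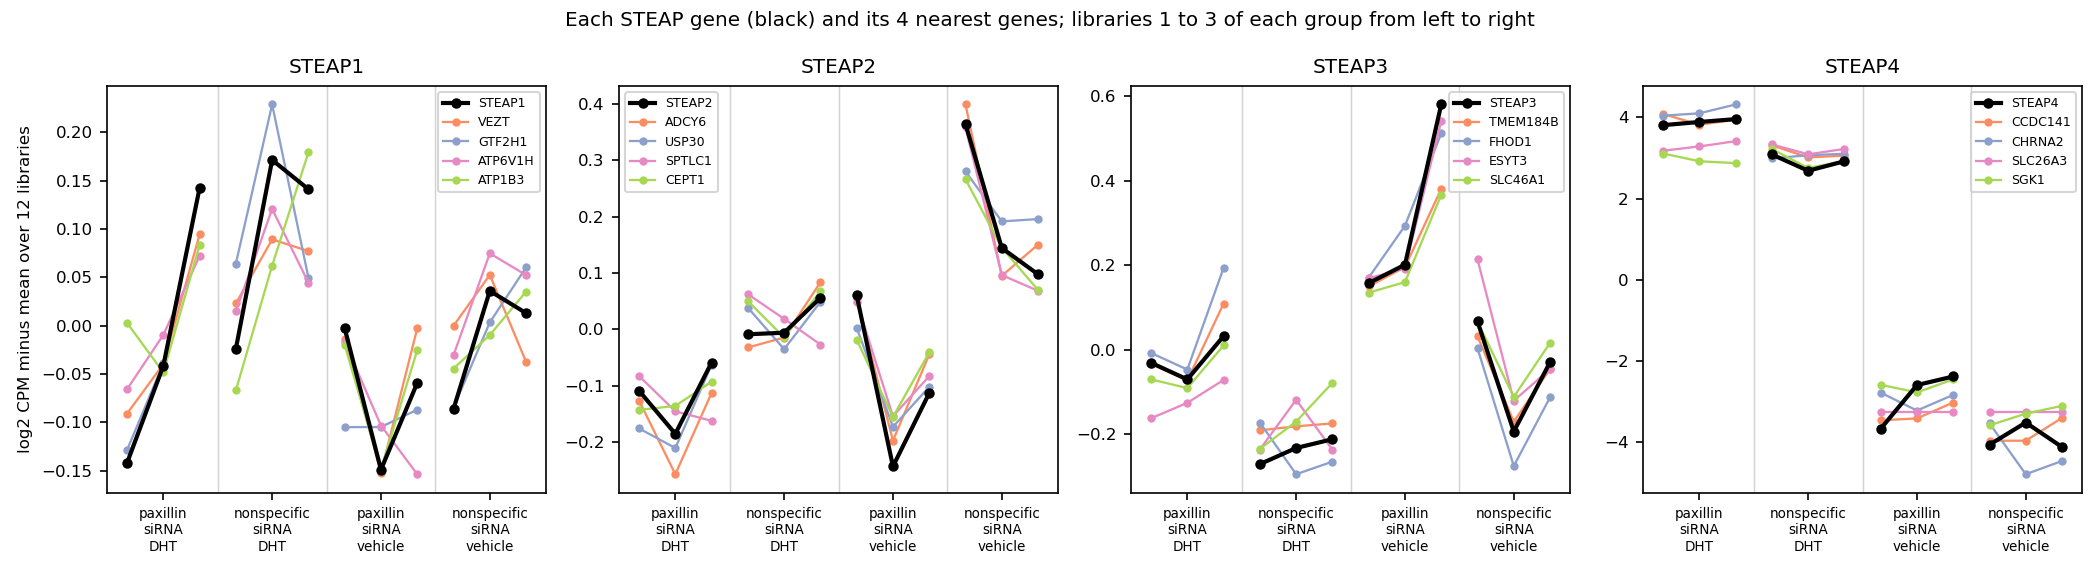
Centred log2 CPM (y axis, separate scale in each panel) of each tested STEAP gene (black) and its 4 nearest genes (colours) in the libraries of the 4 groups; lines only join libraries, which have no order within a group. The STEAP4 panel is split by DHT, and paxillin vehicle replicate 3 is the highest in the STEAP3 panel. For the nearest genes, both follow from their choice by likeness to the member.

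Of 16 other tested genes within 500 kb of a tested member, DHT called 3 higher and 5 lower under paxillin siRNA (38% over all genes), and 6 higher and 4 lower under nonspecific siRNA (40.5%). Paxillin siRNA called 1 higher and 1 lower in DHT (13.3%) and 2 higher and 1 lower in vehicle (20.5%). The genes described here were chosen after their values were seen. ADAM22, 68.0 kb away, was lower with DHT under paxillin siRNA (log2 fold change -0.99 ± 0.12) and under nonspecific siRNA (-0.97 ± 0.13), with edgeR adjusted p values under the threshold in both. It was higher with paxillin siRNA in DHT (0.72 ± 0.13) and in vehicle (0.75 ± 0.12). SRI, 43.9 kb away, which encodes the calcium-binding protein sorcin, had a DHT log2 fold change of 0.11 ± 0.096 under paxillin siRNA, which was not called (edgeR adjusted p 0.418), and of 0.29 ± 0.099 under nonspecific siRNA, which was (0.0285). CLDN12, a claudin 146 kb downstream of STEAP2, was lower with paxillin siRNA in DHT (-0.48 ± 0.096) and in vehicle (-0.60 ± 0.097). Its DHT log2 fold change was 0.32 ± 0.096 under paxillin siRNA, which was called, and 0.20 ± 0.096 under nonspecific siRNA (edgeR adjusted p 0.101). CFAP69, 7.04 kb downstream of STEAP2, had a DHT log2 fold change of -0.38 ± 0.15 under paxillin siRNA, just short of a call (edgeR adjusted p 0.0501), and was lower with DHT under nonspecific siRNA (-0.71 ± 0.16, 0.0013). DBI, which encodes an acyl-CoA-binding protein and lies 101 kb from STEAP3, was higher with DHT under paxillin siRNA (0.81 ± 0.082) and under nonspecific siRNA (0.93 ± 0.083). It was also higher with paxillin siRNA in vehicle (0.25 ± 0.082, edgeR adjusted p 0.0374).

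The other genes that take up, move and store iron and copper were counted in 4 lists. Of 13 listed genes of iron uptake and reduction, 10 were tested. With DHT 1 was higher and 2 were lower under paxillin siRNA, at a median log2 fold change of 0.01 over the list and -0.01 over all genes. Under nonspecific siRNA 1 was higher and 3 were lower (median 0.00, against -0.01 over all genes). These are 3 and 4 of 10 genes, beside 38% and 40.5% called over all genes. CYB561A3, a lysosomal ferrireductase in mouse macrophages, was lower with DHT, at 146 CPM against 744 CPM in vehicle under paxillin siRNA (-2.35 ± 0.14) and 136 CPM against 605 CPM under nonspecific siRNA (-2.15 ± 0.14). FRRS1, a ferric reductase, had log2 fold changes of -0.52 ± 0.13 and -0.53 ± 0.13 in the same order of siRNAs, which is kept for DHT from here on, and CYB561, of the same cytochrome family as CYB561A3, was higher by 0.19 ± 0.070 and 0.31 ± 0.070. TFRC, the transferrin receptor, had 1334 CPM with DHT and 1272 CPM with vehicle under nonspecific siRNA (0.07 ± 0.073, edgeR adjusted p 0.478). CYBRD1, the duodenal ferrireductase, was at 0.10 to 0.19 CPM in every group and was not tested.

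Paxillin siRNA called 2 genes of iron uptake lower in DHT (median -0.15), and 1 higher and 2 lower in vehicle (median -0.19), with all-gene medians of 0.00 and -0.01 and 13.3% and 20.5% of all genes called. The 2 lower genes were the metal ion carriers SLC11A2 (-0.22 ± 0.063 in DHT and -0.38 ± 0.064 in vehicle) and SLC39A8 (-0.35 ± 0.059 and -0.28 ± 0.059). In mouse red cell precursors SLC11A2 carries the ferrous iron that STEAP3 produces in endosomes. In DHT the count was 1 when paxillin DHT replicate 1 or 2, or nonspecific DHT replicate 2 or 3, was left out. Over all genes these fits called 1152 higher and 1195 lower, 626 and 760, 546 and 723, and 694 and 863. The fit to all libraries called 1021 and 1128.

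Of 18 genes of iron storage, export and sensing, 14 were tested. DHT called 2 higher and 4 lower under paxillin siRNA (median 0.08), and 3 higher and 4 lower under nonspecific siRNA (median -0.05), where 38% and 40.5% of all genes were called and the median over all genes was -0.01 in both. SLC40A1, the iron exporter ferroportin, was lower with DHT, at 3.48 CPM against 7.62 CPM in vehicle under paxillin siRNA (-1.14 ± 0.19) and 2.66 CPM against 6.85 CPM under nonspecific siRNA (-1.38 ± 0.21). HFE, the haemochromatosis protein, was lower with DHT (-0.95 ± 0.10 under paxillin and -0.74 ± 0.097 under nonspecific siRNA) and lower with paxillin siRNA (-0.68 ± 0.10 in DHT and -0.47 ± 0.095 in vehicle). FLVCR1, known as a haem exporter, was higher with DHT by 0.47 ± 0.081 and 0.35 ± 0.082 on the log2 scale. HMOX1, haem oxygenase, was higher with paxillin siRNA in DHT (0.40 ± 0.090) and with DHT under paxillin siRNA (0.39 ± 0.089). Paxillin siRNA called 1 gene of this list higher and 1 lower in DHT (median 0.01), and 1 higher and 4 lower in vehicle (median 0.01), beside 13.3% and 20.5% over all genes. The ferritin heavy chain FTH1 was called in none of the 4 comparisons, with edgeR adjusted p values of 0.367 to 0.787. For paxillin siRNA, the count in DHT was 4 in all with the replicate block, and the count in vehicle was 2 without paxillin vehicle replicate 3 or without nonspecific vehicle replicate 2. Over all genes the block called 1681 higher and 1805 lower in DHT, against 1021 and 1128 in the main fit. In vehicle the fits without these libraries called 987 higher and 861 lower, and 1025 and 941, against 1727 and 1576 in the main fit.

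Of 15 genes of mitochondrial iron, haem and iron-sulfur clusters, 14 were tested. DHT called 4 higher and 2 lower under paxillin siRNA (median 0.00), and 5 higher and 2 lower under nonspecific siRNA (median 0.18), where 38% and 40.5% of all genes were called at a median of -0.01 in both. FECH, which inserts iron into haem, was at 384 CPM with DHT and 189 CPM with vehicle under paxillin siRNA (1.03 ± 0.060), and at 376 CPM with DHT and 195 CPM with vehicle under nonspecific siRNA (0.95 ± 0.060). SLC25A37, the mitochondrial iron importer mitoferrin, was higher with DHT by 0.75 ± 0.072 and 0.71 ± 0.073. ISCU, the scaffold of iron-sulfur cluster assembly, had log2 fold changes of -0.18 ± 0.063 and -0.24 ± 0.064. Paxillin siRNA called NFS1 (0.26 ± 0.066), a cysteine desulfurase, higher in DHT (median 0.04), and 2 genes higher in vehicle (median 0.09), among them FDX1 (0.42 ± 0.089), a ferredoxin. Over all genes 13.3% were called in DHT and 20.5% in vehicle. For paxillin siRNA in DHT, no gene of the list was called without paxillin DHT replicate 2 or nonspecific DHT replicate 2, and 3 were called with the replicate block. Over all genes these fits called 626 higher and 760 lower, 546 and 723, and 1681 and 1805, against 1021 and 1128 in the main fit.

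All 14 genes of copper handling were tested. DHT called 2 higher and 3 lower under paxillin siRNA (median 0.00), and 5 higher and 3 lower under nonspecific siRNA (median 0.06), where 38% and 40.5% of all genes were called at a median of -0.01 in both. Without nonspecific vehicle replicate 2, 5 were called under nonspecific siRNA. Over all genes that fit called 2992 higher and 2511 lower, against 3481 and 3053 in the main fit. MT2A, a metallothionein that binds copper and zinc, was lower with DHT, at 4.09 CPM against 16.2 CPM in vehicle under paxillin siRNA (-1.998 ± 0.25) and 2.73 CPM against 9.73 CPM under nonspecific siRNA (-1.84 ± 0.28). The copper-exporting ATPase ATP7A had log2 fold changes of -0.25 ± 0.097 and -0.46 ± 0.099, and SLC31A2, a copper transporter, had 0.93 ± 0.12 and 0.81 ± 0.12. Paxillin siRNA called 2 genes higher and 2 lower in DHT (median -0.03), and 4 higher and 2 lower in vehicle (median 0.02), beside 13.3% and 20.5% over all genes. SCO2 (0.30 ± 0.076 in DHT and 0.44 ± 0.078 in vehicle) was higher in both, and COX17 (-0.30 ± 0.066 and -0.29 ± 0.067) and COMMD1 (-0.47 ± 0.10 and -0.58 ± 0.11) were lower in both. SCO2 and COX17 deliver copper to cytochrome c oxidase. For paxillin siRNA in DHT, the count was 2 in all without paxillin DHT replicate 3 or nonspecific DHT replicate 2. Over all genes these fits called 484 higher and 694 lower, and 546 and 723, against 1021 and 1128 in the main fit. No gene of the 4 lists was called in the interaction by edgeR, DESeq2 or limma-voom. Over all genes these called 6 higher and 2 lower, 27 and 27, and 0 and 0, so the lack of calls says little about the lists. The number in edgeR at an unadjusted p under 0.05 was 0, 3, 0 and 1 in the order of the lists given here. The share of all genes under that p is not given here.

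**Figure D5:**
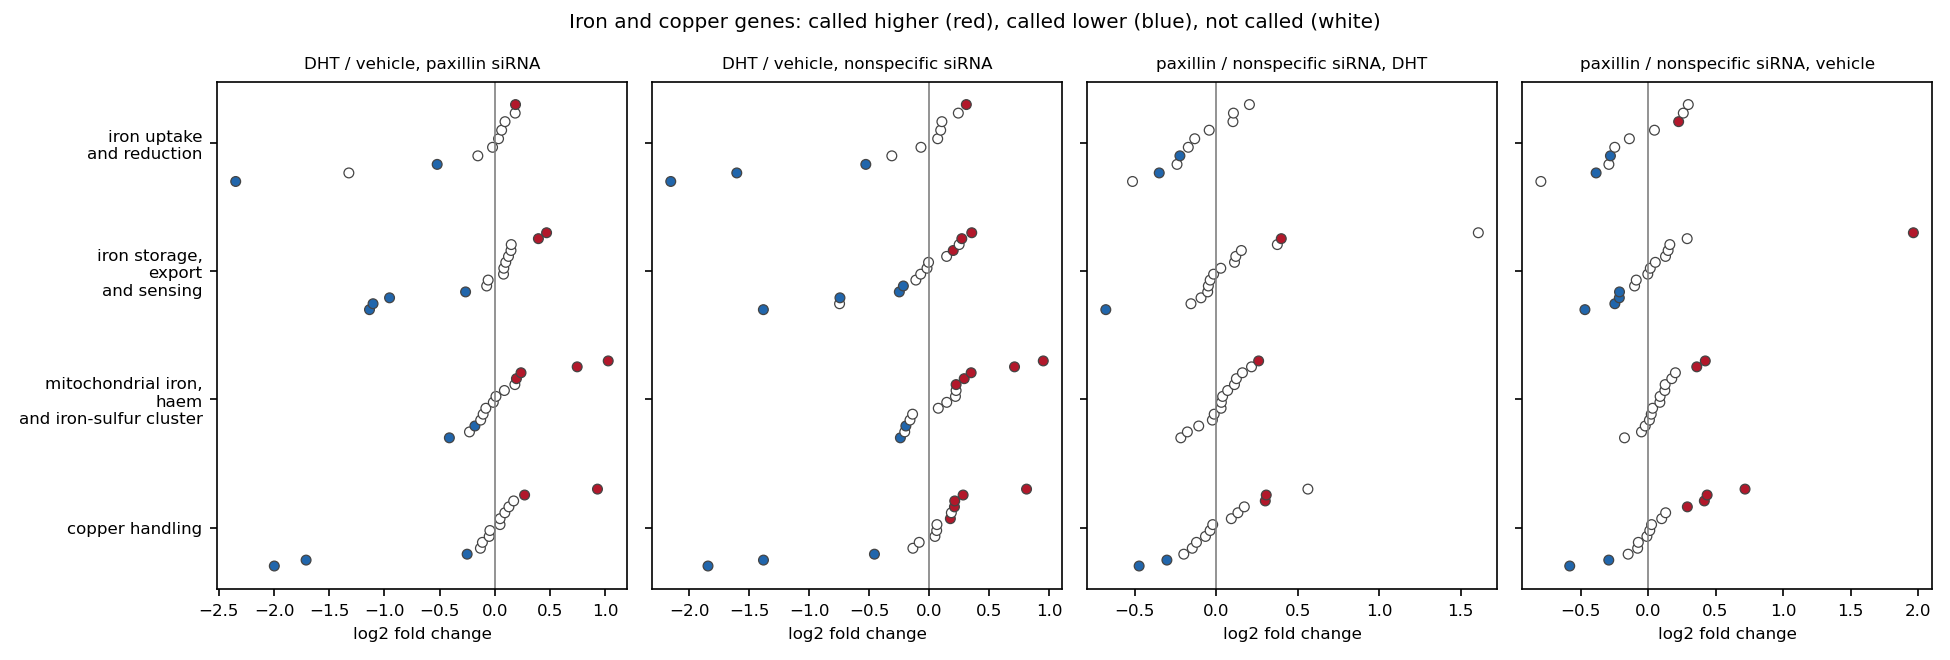
Log2 fold changes (x axis) of the tested members of the 4 iron and copper lists in the DHT comparisons (left pair) and the paxillin siRNA comparisons (right pair); each point is a gene, red called higher, blue called lower, white not called, and height within a list only gives the order of the changes. The lowest point of iron uptake under DHT is CYB561A3, at -2.35 with paxillin siRNA and -2.15 with nonspecific siRNA, and the highest of the mitochondrial list is FECH, at 1.03 with paxillin siRNA and 0.95 with nonspecific siRNA.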

How the data were processed

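The authors deposited raw counts per gene symbol for 12 libraries, 1 column a library, made from mRNA with a stranded kit per the labels' protocols. Trimmomatic 0.36, STAR 2.5.2b, featureCounts of Subread 1.5.0p3 and GRCh38 are named in the submitters' processing notes. Not given in the sources used here are the annotation release, the strand setting and the treatment of reads that fit several genes, so antisense genes and near-copies are uncertain. Library totals of 11944906 to 32040465 counts set the precision of low genes, and intervals of count ratios and shares (95%) cover counting error only.

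In R 4.3.3, edgeR 4.0.16 kept 16115 genes (filterByExpr, minimum count 10, minimum total 15), scaled libraries by TMM and fitted 4 group means to all 12 libraries with the quasi-likelihood test. Standard errors were derived from the F statistic. P-values were adjusted by the Benjamini-Hochberg method over all tested genes. The pipeline was tested on simulated counts. The members, lists and rules were chosen with earlier results of these data known. All members are named, then up to 3 called genes a direction in each list if a group averaged 5 CPM or more, and the 4 nearest genes of each tested member. Genes beside STEAP genes were looked up within 500 kb, and those described were chosen after their values were seen. Lengths and positions are from GENCODE 29 and start windows from RefSeq (GRCh38.p14).

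Replicate numbers are shared by the groups in the labels. In 9801 genes, deviations from the means of the groups had correlations of 0.163 to 0.510 for the 18 pairs of libraries with the same number, and of -0.446 to 0.225 for the 36 other pairs. The numbers thus pair the libraries, and the replicate block, a fit that adds the number as a term, was among the alternatives. Replicates of a group differed beyond counting noise (chi-square per degree of freedom 6.16 to 18.6). The others were upper-quartile and RLE scaling, DESeq2 1.42.0, limma-voom (limma 3.58.1), no filter, an adjusted p under 0.01, fits of the compared groups alone, each library left out, STEAP1 and STEAP1B summed, and, for levels per length, coding length, longest transcript and plain CPM.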

Additional observations from a re-analysis of the deposited data

How the results depend on the processing

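No log2 fold change of a member changed direction under any alternative where it was called. STEAP4 kept its calls with DHT and with paxillin siRNA in DHT in all alternatives. With the replicate block, the STEAP2 response to DHT under nonspecific siRNA was called at -0.19 and the STEAP3 difference between siRNAs in DHT at 0.22. The block changed no other member's call, and paxillin siRNA in DHT then called 1681 genes higher and 1805 lower. Upper-quartile scaling gave -0.26 for STEAP2 and -0.26 for STEAP3 (DHT, nonspecific siRNA), DESeq2 -0.20 for STEAP2, the compared groups alone -0.21 for STEAP2, -0.20 for STEAP3 and, between siRNAs in DHT, 0.21 for STEAP3, and no filter 0.23 for the last, all called. At an adjusted p under 0.01, STEAP2 between siRNAs in vehicle (-0.30) was not called. That threshold left 1878 lower genes for DHT under paxillin siRNA and 2000 under nonspecific siRNA, 411 higher and 543 lower for paxillin siRNA in DHT, 865 and 786 in vehicle, and 0 and 0 in the interaction. The interaction called 45 higher and 97 lower genes without a filter, 27 and 27 with DESeq2, 0 and 0 with limma-voom, and 42 and 55 with the block, against 6 and 2.

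With each library left out in turn, DHT under nonspecific siRNA gave STEAP2 -0.24 to -0.11 and STEAP3 -0.25 to -0.13. Paxillin siRNA in DHT gave STEAP3 0.18 to 0.24, and in vehicle STEAP2 -0.38 to -0.21, STEAP3 0.24 to 0.46 and STEAP4 1.13 to 1.92. Gene counts for paxillin siRNA ran from 484 to 1152 higher and 694 to 1319 lower in DHT, lowest without paxillin DHT replicate 3. In vehicle they ran from 987 to 1902 higher and 861 to 1622 lower, lowest without paxillin vehicle replicate 3. The interaction had 0 to 12 higher and 0 to 14 lower. The cause of these changes was not tested. The compared groups alone were not run for the interaction, and STEAP4 was filtered out there for paxillin siRNA in vehicle. For levels per length, coding length moved 20 of 20 values by more than the spread between libraries, the longest transcript 15 of 20 and plain CPM 4 of 20. Depth limits STEAP1B and vehicle STEAP4, at 0 to 12 counts a library.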
